A study of Mus musculus with 20 samples.

Results

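Livers of Fancd2 mutant mice given metformin and oxymetholone together were compared with livers of untreated Fancd2 mutants. The comparison was chosen by treatment label. It took the 3 combination libraries and the 3 untreated mutant libraries of the count table, that is 6 of its 18 libraries. The series has 20 labelled samples. All 16115 genes of the count table were covered. The animals were male, and the tissue was taken after 18 months of treatment. Both groups carried the same mutation, written d2-/- in the labels. Dose, strain, age at the start and the kind of Fancd2 allele are not stated there. Nor do the labels say that each library came from its own animal, so every p-value below measures the spread between libraries. The remaining 12 libraries were from mutants given oxymetholone alone (5 libraries), mutants given metformin alone (3 libraries) and untreated wild-type mice (4 libraries).

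Fancd2 is the protein that the Fanconi anaemia core complex marks with ubiquitin when a replication fork meets a DNA crosslink. Its loss brings marrow failure in people, and oxymetholone, a synthetic anabolic androgen, is one of the drugs given for that condition. Androgens act through the androgen receptor, a DNA-binding receptor also present in hepatocytes. Metformin lowers glucose output of the liver, inhibits respiratory complex I and activates the energy sensor AMPK. The liver also makes cholesterol, and the genes of that route share a master regulator, SREBP2, which is released from the endoplasmic reticulum when sterols are scarce.

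Total counts were 20.2 to 32.7 M per library. Among the 6 libraries 2 stood apart. Combination replicate 3 had the lowest median correlation with the other libraries (0.916) and was separated by the first principal component, which held 47.3% of the variance among the 6. Untreated mutant replicate 2 was separated by the second (21.3%). Levels here and below are CPM, counts scaled to library size multiplied by a TMM factor from edgeR. That factor was 1.31 in combination replicate 3 and 0.862 to 0.999 in the other libraries compared. Hepatocyte markers summed to 75645 to 137046 CPM in combination livers and 116100 to 118760 CPM in untreated mutants. The lowest sum was that of combination replicate 3, at 75645 of 762575 CPM for all genes. Combination replicate 1 had 98851 of 1000680 CPM, so the lowest place of replicate 3 depended on the factor. None of the 15 markers was at 0 in any of the 6 libraries. Mitochondrially encoded genes took 2.70 ± 1.01% of counts in combination livers and 2.27 ± 0.287% in untreated mutants (SD, n = 3 each; exact two-sided permutation p = 0.4, where 0.1 is the smallest possible). The 3 combination libraries were at 3.28, 3.29 and 1.54%. Fancd2 itself was not analysed here.

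Of the 16115 genes, 3 (0.0186%) passed an adjusted p of 0.05 in edgeR's quasi-likelihood test, and all 3 were higher with both drugs: Wif1, Paqr8 and Lncbate1. No gene passed in the lower direction. Without adjustment 880 genes (5.46%) had p under 0.05, of which 577 (3.58%) were higher and 303 (1.88%) lower. The 3 combination libraries lay entirely above or entirely below the 3 untreated libraries in 1396 genes (8.66%), 759 of them above (4.71%) and 637 below (3.95%). The authors' deposited table of results for the same comparison holds 0 genes with adjusted p under 0.05 and 1380 with unadjusted p under 0.05, and its smallest adjusted p is 0.0527.

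**Figure D1:**
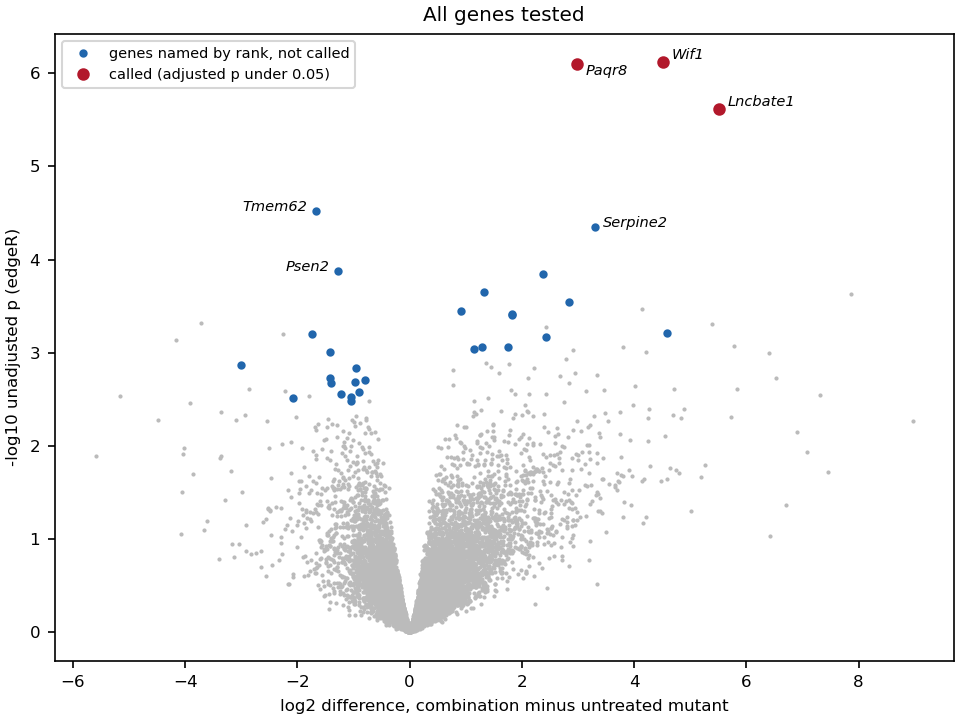
Each dot is 1 of the 16115 genes, with the log2 difference (combination minus untreated mutant) on the horizontal axis and −log10 of the unadjusted edgeR p on the vertical axis. Wif1, Paqr8 and Lncbate1 stand above all other genes, and Tmem62 and Psen2 lead the lower side without passing adjustment.

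The promoters of the called genes are shown because oxymetholone is a synthetic androgen. The letters were searched for after the genes had been called, and binding of the androgen receptor was not tested. RefSeq (build GRCm38.p6) gives a window of 250 bases before to 50 bases after the start for 2 of the 3 genes. Paqr8 has 2 starts, at chr1:20890298-20890597 and chr1:20917590-20917889, both on the plus strand. Wif1 has 1, at chr10:121033754-121034053 on the plus strand. Capitals mark the androgen receptor half-site AGAACA, or TGTTCT where it is read on the other strand.
Paqr8 first start: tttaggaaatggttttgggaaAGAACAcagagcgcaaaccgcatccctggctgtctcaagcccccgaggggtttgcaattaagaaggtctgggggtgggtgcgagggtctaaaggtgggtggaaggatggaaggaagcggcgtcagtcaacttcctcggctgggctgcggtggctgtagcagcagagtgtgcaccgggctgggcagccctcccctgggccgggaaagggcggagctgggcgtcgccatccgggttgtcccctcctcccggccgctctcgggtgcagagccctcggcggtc
Paqr8 second start: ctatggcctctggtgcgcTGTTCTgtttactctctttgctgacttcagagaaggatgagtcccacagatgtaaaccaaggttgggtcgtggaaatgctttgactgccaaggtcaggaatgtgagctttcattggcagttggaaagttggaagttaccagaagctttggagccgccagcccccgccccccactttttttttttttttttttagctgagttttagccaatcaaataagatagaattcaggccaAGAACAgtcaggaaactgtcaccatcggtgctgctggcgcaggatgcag
Wif1: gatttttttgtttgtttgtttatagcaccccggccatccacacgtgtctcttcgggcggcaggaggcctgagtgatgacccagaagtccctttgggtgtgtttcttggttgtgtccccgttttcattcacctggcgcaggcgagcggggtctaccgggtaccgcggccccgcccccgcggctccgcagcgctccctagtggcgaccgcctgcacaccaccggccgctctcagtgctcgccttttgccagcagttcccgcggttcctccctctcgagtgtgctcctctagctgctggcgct
The first Paqr8 window holds 1 half-site, 229 bases before the start. The second holds 2, at 232 bases before the start and at the first base after it. The Wif1 window holds none, so it has no capitals. The same letters occur in 18.97% of the 32851 mouse promoter windows. Of 11529 tested genes with a window, 15.84% hold them. So do 4 of 17 genes of the cholesterol synthesis list below, whose members lay lower in combination livers. The full palindrome, 2 half-sites facing each other across 3 bases, occurs in 3 windows, none of them of Paqr8 or Wif1.

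Wif1 encodes a secreted protein that binds Wnt ligands and keeps them from their receptors. It was at 24.4, 14.3 and 9.57 CPM in combination livers and at 0.213, 1.04 and 0.880 CPM in untreated mutants. The groups did not overlap, and the lowest combination library was still several times the highest untreated one. Wif1 rose 23.0-fold (log2 difference 4.52 ± 0.59 SE, edgeR adjusted p = 0.00639). Oxymetholone livers ranged over 16.3, 18.0, 37.6, 41.7 and 44.0 CPM, metformin livers held 3.32, 2.38 and 4.66 CPM, and wild-type livers 0.752 to 1.73 CPM.

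Paqr8 encodes a membrane progestin receptor, a receptor for steroids at the cell surface. Its level was 10.9, 9.94 and 13.1 CPM in combination livers and 1.24, 1.80 and 1.25 CPM in untreated mutants. The groups did not overlap, and the combination libraries lay close together. Paqr8 rose 7.94-fold (log2 difference 2.99 ± 0.39, edgeR adjusted p = 0.00639). It stood at 13.4 to 28.9 CPM in the 5 oxymetholone livers, 1.63, 4.92 and 2.29 CPM in metformin livers and 1.25 to 1.89 CPM in wild type. Of the other 7 members of the list of membrane progestin receptors and relatives, 6 had a log2 difference above 0, against 50.4% of all genes. Of all 8 members, 7, 7 and 3 were above the untreated mean in combination replicates 1, 2 and 3. The list's median was 0.54, and 0.22 without combination replicate 2. Paqr7 overlapped, at 29.9, 59.1 and 16.3 CPM in combination livers and 25.2, 20.7 and 22.7 CPM in untreated mutants. Paqr6 and Paqr4, of the same family, were low throughout, at 0.446, 0.561 and 0.870 CPM and at 0.991, 1.02 and 1.98 CPM in combination livers, against 0.142, 0.328 and 0.293 CPM and 0.497, 0.602 and 0.734 CPM in untreated mutants. Their combination libraries lay above the untreated ones, but neither passed (edgeR adjusted p = 0.881 and 0.974).

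Lncbate1 is a long noncoding RNA first known from mouse brown fat. It gave 21.1, 7.85 and 4.28 CPM in combination livers and 0.142, 0.109 and 0.440 CPM in untreated mutants. The untreated values rest on 4, 2 and 12 counts, so the fold of 45.5 is loosely set although the groups lay far apart (log2 difference 5.51 ± 0.79, edgeR adjusted p = 0.0131). Oxymetholone livers held 8.14 to 25.7 CPM, metformin livers 0.368, 0.0991 and 0.406 CPM and wild-type livers 0.0771 to 0.506 CPM. Metformin livers thus stood in the range of untreated mutants and wild type.

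The 3 genes were also set against each drug alone, comparisons that share the combination libraries with the one above. Against oxymetholone, Wif1 differed by −0.97 ± 0.46, Paqr8 by −1.01 ± 0.33 and Lncbate1 by −0.53 ± 0.56 on the log2 scale (edgeR adjusted p = 0.956 for each). Against metformin, the differences were 2.22 ± 0.52 for Wif1, 1.93 ± 0.37 for Paqr8 and 5.24 ± 0.77 for Lncbate1 (edgeR adjusted p = 0.787, 0.306 and 0.0555). No gene of 16115 passed edgeR's test in either comparison (0%). Unadjusted p was under 0.05 for 461 genes (2.86%) against oxymetholone and for 552 (3.43%) against metformin. DESeq2 called 1 gene against oxymetholone, Acmsd, which encodes an enzyme of tryptophan breakdown, and 10 against metformin, while limma-voom called 0 and 3. The 3 against metformin were Rab38, Tmem62 and Paqr8.

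**Figure D2:**
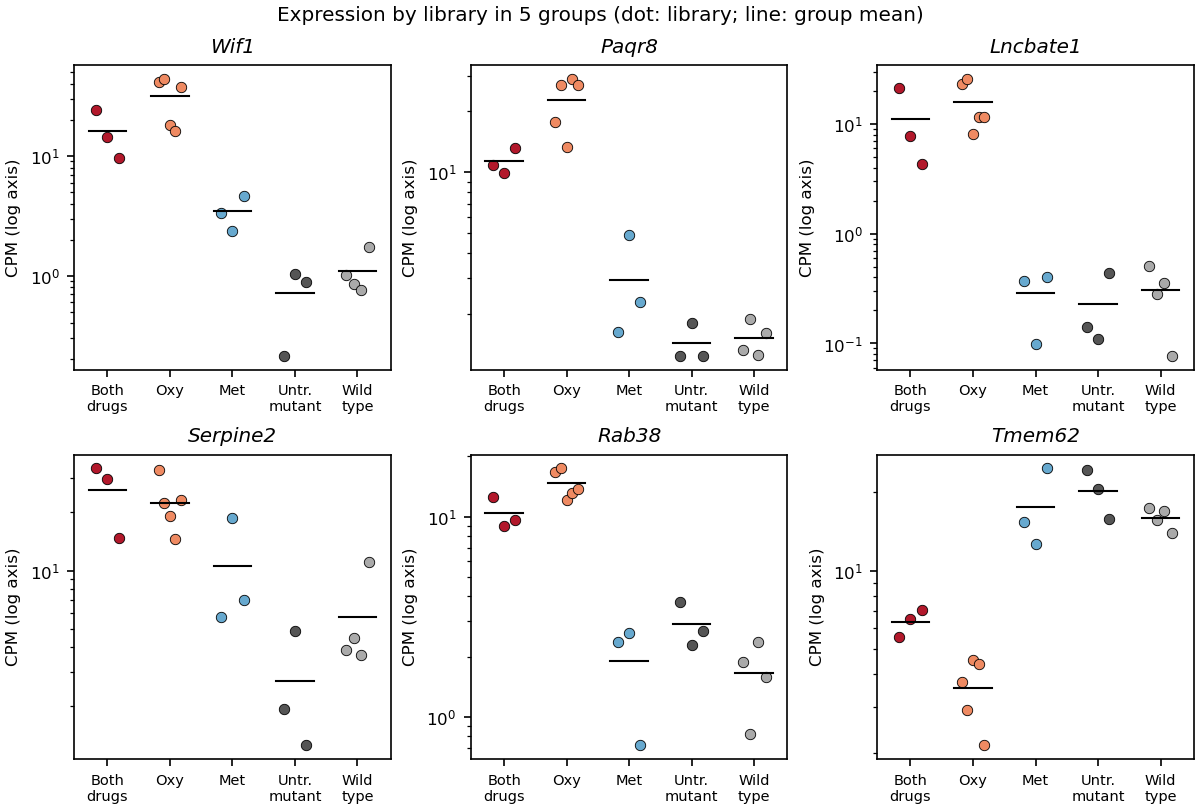
CPM on a log axis for 6 genes in combination (both drugs), oxymetholone (Oxy), metformin (Met), untreated mutant and wild-type livers. Each dot is a library and each line a group mean. Wif1, Paqr8, Lncbate1, Serpine2 and Rab38 lay higher in combination than in untreated mutant livers, and Tmem62 lay lower.

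Leaving out any 1 untreated library lowered the number of calls. Over all fits with 1 library left out, the log2 difference was 4.07 to 4.87 for Wif1, 2.87 to 3.18 for Paqr8 and 4.64 to 6.38 for Lncbate1. Without untreated mutant replicate 2 no gene was called, with edgeR adjusted p of 0.0788 for Wif1, 0.115 for Paqr8 and 0.228 for Lncbate1. Without untreated replicate 4 again none was called (0.0687 for Wif1, 0.0815 for Paqr8, 0.0687 for Lncbate1), and without untreated replicate 3 Lncbate1 was lost (0.161). With any 1 combination library left out, 3 genes were called. With combination replicate 3 and untreated replicate 2 both left out, 1 gene was called, Wif1 (edgeR adjusted p = 0.0437).

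Below the threshold, the naming rule takes genes with mean log2 CPM of at least 0 and no overlap between the groups, and no predicted genes. On the higher side these were led by unadjusted p by Serpine2, Pfkfb3, Nceh1, Catsperd, Smyd2 and Rab38. Their lack of overlap is a condition of naming, not a result. Serpine2, a secreted inhibitor of thrombin and plasminogen activators, was at 33.8, 29.7 and 14.7 CPM in combination livers and 1.92, 4.87 and 1.25 CPM in untreated mutants (log2 difference 3.30 ± 0.60, edgeR adjusted p = 0.145). The lowest combination library was well above the highest untreated one. Rab38, a Rab GTPase that moves cargo to melanosomes and related organelles, was at 12.5, 8.97 and 9.64 CPM in combination livers and 3.77, 2.30 and 2.68 CPM in untreated mutants (1.83 ± 0.41, edgeR adjusted p = 0.419). Metformin livers had 2.37, 2.64 and 0.724 CPM of Rab38 and the 5 oxymetholone livers 12.1 to 17.4 CPM.

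Several of these genes act in metabolism. Pfkfb3, which makes the activator of glycolysis fructose 2,6-bisphosphate, was at 6.24, 14.4 and 6.84 CPM in combination livers and 1.95, 1.48 and 1.83 CPM in untreated mutants. Nceh1, a hydrolase of cholesterol esters, was at 53.3, 46.7 and 36.9 CPM in combination livers against 17.2, 18.0 and 19.5 CPM in untreated mutants. In both genes the untreated libraries were tightly grouped, and edgeR gave an adjusted p of 0.326 for Pfkfb3 and 0.419 for Nceh1. Tsku, a secreted protein that the liver releases, was at 83.9, 114 and 29.4 CPM in combination livers and 12.96, 10.01 and 18.96 CPM in untreated mutants. Vnn1, the pantetheinase of coenzyme A turnover, was at 27.1, 40.7 and 22.3 CPM in combination livers and 5.65, 13.0 and 7.96 CPM in untreated mutants. Neither passed (edgeR adjusted p = 0.493 for Tsku and 0.509 for Vnn1).

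Catsperd, a subunit of the sperm calcium channel, Smyd2, a lysine methyltransferase, and Nepro lay higher by 2.84 ± 0.62, 0.91 ± 0.21 and 1.14 ± 0.28 on the log2 scale (edgeR adjusted p = 0.419 for Catsperd and Smyd2 and 0.509 for Nepro). Smyd2 had the least scatter of them, with 10.1, 12.5 and 14.7 CPM in combination livers and 6.57, 6.94 and 6.31 CPM in untreated mutants.

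On the lower side the leading gene was Tmem62, which encodes a membrane protein. It was at 5.55, 6.53 and 7.03 CPM in combination livers and 24.3, 20.6 and 15.8 CPM in untreated mutants (log2 difference −1.67 ± 0.29, edgeR adjusted p = 0.120). Oxymetholone livers held 2.14 to 4.52 CPM, and metformin livers 15.4, 12.6 and 24.7 CPM. Its neighbour in the RefSeq annotation is Ubr1, a ubiquitin ligase that recognises the first residue of proteins. Ubr1 was at 5.10, 7.24 and 10.8 CPM in combination livers and 12.2, 17.0 and 18.6 CPM in untreated mutants (−1.04 ± 0.30, edgeR adjusted p = 0.699). Oxymetholone livers held 2.60 to 5.45 CPM of Ubr1 and metformin livers 18.1, 15.9 and 14.1 CPM. Both neighbours were thus lower with both drugs, and their lack of overlap was a condition of naming. How reads of the pair were assigned is not given in the sources used here.

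Psen2, a catalytic subunit of gamma-secretase, was at 155, 107 and 105 CPM in combination livers and 268, 317 and 302 CPM in untreated mutants (−1.27 ± 0.26, edgeR adjusted p = 0.326). Cldn1, a tight junction protein of hepatocytes and bile ducts, was at 55.2, 29.8 and 66.9 CPM in combination livers and 148, 152 and 106 CPM in untreated mutants (edgeR adjusted p = 0.509). Bbc3, the p53 target also called Puma that promotes apoptosis, was at 8.37, 6.53 and 10.5 CPM in combination livers and 19.1, 17.0 and 13.6 CPM in untreated mutants (−0.96 ± 0.25, edgeR adjusted p = 0.607). The list of p53 targets did not go this way with all libraries, having 25 of 32 members above 0 and a median of 0.38. Without combination replicate 3 it had 10 above 0 and a median of −0.13. For Psen2, Cldn1 and Bbc3 the highest combination library was below the lowest untreated one, which the naming rule requires. In the authors' deposited table Paqr8, Tmem62 and Bbc3 share the smallest adjusted p (0.0527), with log2 fold changes of 2.75, −1.57 and −1.06. Ptk6, a tyrosine kinase of epithelia, showed a wide gap at low levels, with 2.08, 1.07 and 0.282 CPM in combination livers and 8.92, 8.48 and 9.57 CPM in untreated mutants (−3.00 ± 0.78, edgeR adjusted p = 0.607). The zinc finger gene Zkscan4 and Tstd3, Ppp1r14a, Hdhd3, Mreg, Rdh16f2 and Fam149a lay lower by 0.79 (Tstd3) to 2.07 (Rdh16f2) on the log2 scale, with edgeR adjusted p of 0.489 for Zkscan4 and 0.656 to 0.723 for the others.

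Other tests called more genes. DESeq2 called 43 of 16035 genes (0.268%), 34 higher and 9 lower, and limma-voom with quality weights called 16 (0.0993%), 10 higher and 6 lower. All 3 edgeR calls were among both sets, and 12 genes were called by both DESeq2 and limma-voom. Tmem62, Serpine2, Psen2, Nceh1, Rab38, Tsku and Cldn1 were among these 12. Pfkfb3 was called by DESeq2 only (adjusted p = 0.00141), and Ubr1 by limma-voom only (adjusted p = 0.0140).

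The genes of cholesterol synthesis lay lower in combination livers across the route. All 25 measured members of the list had a log2 difference below 0, against 49.6% of all genes, with a median of −1.01 against 0.00. In 14 of the 25 the 3 combination libraries were all below the 3 untreated ones, against 3.95% of all genes, and 14 had an unadjusted p under 0.05, against 1.88%. None passed edgeR's adjustment, and limma-voom called Sc5d (adjusted p = 0.0311). All 25 were lower without combination replicate 3 (median −1.16), and 23 were lower without untreated replicate 2 (median −1.03).

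At the entry of the route Hmgcs1, the cytosolic HMG-CoA synthase, was at 226, 64.4 and 262 CPM in combination livers and 523, 544 and 682 CPM in untreated mutants (−1.66 ± 0.60, edgeR adjusted p = 0.821). The groups did not overlap. Mvk, mevalonate kinase, was at 40.7, 20.7 and 34.9 CPM in combination livers and 72.5, 60.5 and 61.8 CPM in untreated mutants. Combination replicate 2 had the least Hmgcs1 and Mvk of the 6 libraries. Sqle, squalene epoxidase, was at 115, 45.5 and 103 CPM in combination livers and 183, 170 and 184 CPM in untreated mutants.

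After lanosterol the enzymes that strip and reshape the sterol ring showed the same order. Cyp51, lanosterol demethylase, was at 251, 132 and 276 CPM in combination livers and 413, 552 and 645 CPM in untreated mutants (−1.29 ± 0.41). Msmo1, the C-4 methylsterol oxidase, was at 339, 219 and 273 CPM in combination livers and 509, 729 and 954 CPM in untreated mutants (−1.40 ± 0.39, edgeR adjusted p = 0.670). Neither group reached into the other. Sc5d, lathosterol oxidase, was at 148, 222 and 206 CPM in combination livers and 346, 513 and 683 CPM in untreated mutants (−1.42 ± 0.39, edgeR adjusted p = 0.648). Dhcr7, which makes cholesterol in the last step of one branch, was at 58.5, 40.8 and 69.1 CPM in combination livers and 181, 136 and 143 CPM in untreated mutants (−1.45 ± 0.45, edgeR adjusted p = 0.776). These were the list's members with the smallest p. Ebp, the sterol isomerase, lay lower by 0.85 ± 0.30 on the log2 scale.

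Among the regulators on the list, Srebf2, which encodes SREBP2, was at 42.8, 20.6 and 24.8 CPM in combination livers and 50.05, 28.1 and 25.7 CPM in untreated mutants. The groups overlapped, with a log2 difference of −0.24 ± 0.48. Insig1, which holds the SREBP2 complex back, was at 261, 230 and 405 CPM in combination livers and 402, 637 and 699 CPM in untreated mutants, an overlap by a narrow margin (−0.96 ± 0.40, edgeR adjusted p = 0.870).

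**Figure D3:**
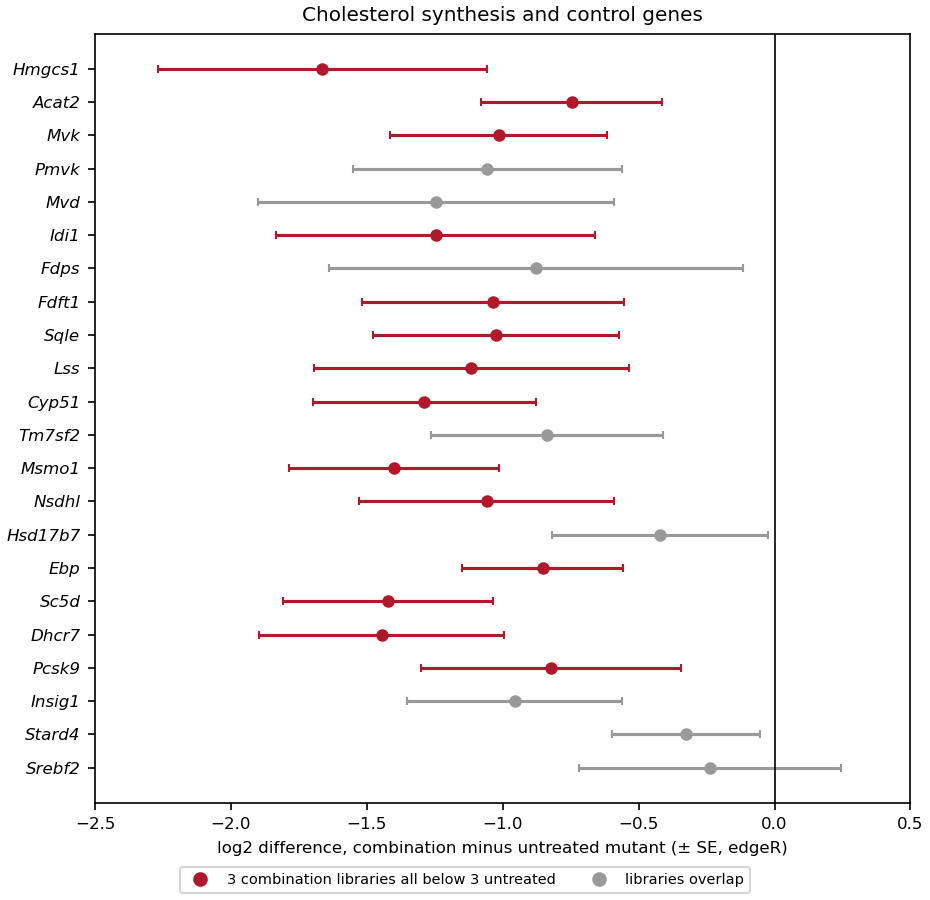
Log2 difference, combination minus untreated mutant, with its SE from the edgeR fit, for 22 of the list members, in route order from Hmgcs1 to Dhcr7 and then control genes. All 22 points lie below 0, and in 14 (red) the groups did not overlap. The list members not drawn also lay below 0, and their groups overlapped, so 14 is the count for all 25 members too.

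The promoter of Hmgcs1 (RefSeq, GRCm38.p6, chr13:119690101-119690400, plus strand) is shown because it holds the classical sterol element letters TCACNCCAC, in capitals, 137 bases before the start.
Hmgcs1: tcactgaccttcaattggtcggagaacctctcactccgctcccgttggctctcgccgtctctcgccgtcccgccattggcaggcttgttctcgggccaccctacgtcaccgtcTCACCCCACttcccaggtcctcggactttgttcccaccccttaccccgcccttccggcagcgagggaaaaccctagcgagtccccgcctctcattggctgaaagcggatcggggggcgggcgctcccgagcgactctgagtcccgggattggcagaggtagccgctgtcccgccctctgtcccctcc
Of the 17 list members with a window, Hmgcs1 was the only one with these letters on either strand. Of all 11529 tested genes with a window, 1.47% had them. The sterol element letters were searched for after the values of the list had been seen. The androgen receptor half-site, read as TGTTCT, also lies in the Hmgcs1 window, 165 bases before the start, and is not in capitals.

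Set against each drug alone, the list was less far apart. Its median was −0.58 against oxymetholone, with 25 of 25 members below 0, and −0.31 against metformin, with 23 of 25 below 0. Hmgcs1 ranged over 116 to 472 CPM in the oxymetholone livers and stood at 104, 440 and 265 CPM in metformin livers, so single-drug livers reached into the range of combination livers and stayed below the lowest untreated mutant.

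Genes of fatty acid oxidation and targets of PPAR-alpha, the receptor that senses fatty acids, lay higher as a list, with 26 of 28 above 0 against 50.4% of all genes and a median of 0.50. In 6 the groups did not overlap, against 4.71%, and 2 had an unadjusted p under 0.05. Of the 28 members, 26 were above the untreated mean in combination replicate 1, 26 in replicate 2 and 10 in replicate 3. The median was 0.64 without replicate 3 and 0.19 without replicate 2. Acot2, a mitochondrial acyl-CoA thioesterase, was at 12.5, 19.98 and 18.2 CPM in combination livers and 4.26, 5.25 and 6.27 CPM in untreated mutants (1.68 ± 0.57, edgeR adjusted p = 0.803). Acot1, its cytosolic near-copy, was at 20.5, 65.7 and 27.2 CPM in combination livers against 2.77, 14.3 and 18.2 CPM in untreated mutants, and reads of the pair may have been shared between them. Cpt1a, the gate of mitochondrial fatty acid import, was at 268, 182 and 30.7 CPM in combination livers and 92.9, 77.4 and 70.8 CPM in untreated mutants, with replicate 3 below every untreated library. Cidec, a lipid droplet protein from another list, was at 9.61, 6.58 and 6.70 CPM in combination livers and 1.74, 2.62 and 3.19 CPM in untreated mutants (1.60 ± 0.43, edgeR adjusted p = 0.633).

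Stress genes of the integrated stress response, the program that ATF4 runs when translation is slowed, had 17 of 23 members above 0, against 50.4% of all genes, and a median of 0.34, with 6 of 23 without overlap on the higher side, against 4.71%. The median was 0.60 without combination replicate 1 and 0.54 without untreated replicate 2, but 0.25 without combination replicate 3 and 0.23 with limma-voom. Combination replicate 2 scored 0.06 (median log2 CPM above the untreated mean), below untreated replicates 2 (0.11) and 3 (0.08). Ddit3, also called Chop, was at 6.74, 9.28 and 8.06 CPM in combination livers and 3.73, 2.52 and 3.63 CPM in untreated mutants (1.28 ± 0.32, edgeR adjusted p = 0.509). Nupr1, a small stress-induced nuclear protein, was at 1.54, 7.34 and 3.41 CPM in combination livers and 1.17, 0.602 and 1.03 CPM in untreated mutants. The groups of both genes did not touch. Psat1 and Phgdh, of serine synthesis, were at 3.96, 4.28 and 23.3 CPM and at 1.59, 2.14 and 10.8 CPM in combination livers, against 3.27, 2.35 and 1.65 CPM and 1.14, 1.48 and 0.844 CPM in untreated mutants, so replicate 3 set most of their difference. Fgf21, a hormone of this program, was at 15.9, 8.97 and 12.0 CPM in combination livers and 4.87, 5.19 and 5.36 CPM in untreated mutants (1.26 ± 0.82, edgeR adjusted p = 0.977).

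The androgen and glucocorticoid targets on the list had 17 of 26 members above 0, a median of 0.33 and 2 members without overlap on the higher side, against 4.71% of all genes. The median was 0.14 without combination replicate 3 and 0.18 without untreated replicate 3. Odc1, ornithine decarboxylase of polyamine synthesis, was at 112, 110 and 126 CPM in combination livers and 63.9, 61.2 and 68.6 CPM in untreated mutants (0.84 ± 0.27, edgeR adjusted p = 0.778). Fkbp5, a chaperone partner of steroid receptors, was at 65.8, 26.3 and 21.9 CPM in combination livers and 13.6, 4.65 and 8.84 CPM in untreated mutants (2.07 ± 0.83, edgeR adjusted p = 0.866). Both separated the groups, Odc1 with little scatter.

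Genes with sex-dependent expression in mouse liver did not split by sex in one direction. The female-biased list had 25 of 27 members above 0 and a median of 1.20, and the male-biased list had 13 of 24 above 0 and a median of 0.10. Without combination replicate 3 these medians were 0.14 and 0.48, and without combination replicate 2 they were 1.23 and −0.53. Cyp2a4, a steroid hydroxylase, was at 164, 632 and 852 CPM in combination livers and 14.2, 20.8 and 33.2 CPM in untreated mutants (4.59 ± 1.09, edgeR adjusted p = 0.489). Its near-identical neighbour Cyp2a5 was at 876, 2349.8 and 1372 CPM in combination livers and 70.3, 116 and 285 CPM in untreated mutants, and reads cannot be told apart with certainty between the pair. Both separated the groups by a wide gap. Cyp17a1, a steroid hydroxylase, went the other way, with 14.8, 15.5 and 15.02 CPM in combination livers and 49.8, 71.3 and 74.8 CPM in untreated mutants (−2.11 ± 0.71, edgeR adjusted p = 0.803). Mup20, a male-biased urinary protein of a gene family with near copies, was at 2000.6, 5938 and 912 CPM in combination livers and 578, 808 and 397 CPM in untreated mutants.

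Wnt signalling sets the pattern of hepatocytes around the central vein. Beside Wif1, 18 of the other 21 measured ligands, inhibitors and feedback genes lay above 0, and none of them passed. The list's median was 0.53 with Wif1 included, and 0.29 both without combination replicate 2 and among genes with a mean CPM of at least 1. Nkd1, a feedback inhibitor, was at 3.17, 4.23 and 6.51 CPM in combination livers and 1.95, 2.08 and 2.90 CPM in untreated mutants (1.01 ± 0.47, edgeR adjusted p = 0.900). Axin2, the standard feedback target, overlapped at 7.28, 3.57 and 5.74 CPM in combination livers and 3.77, 3.39 and 2.02 CPM in untreated mutants. Lgr5, a receptor for R-spondins, also overlapped, at 4.11, 3.36 and 2.80 CPM in combination livers and 3.66, 6.12 and 5.36 CPM in untreated mutants. Glul, the glutamine synthetase of the innermost pericentral cells, was at 793, 641 and 922 CPM in combination livers and 270, 403 and 399 CPM in untreated mutants (1.14 ± 0.35, edgeR adjusted p = 0.776). Glul and Nkd1 separated the groups, and Axin2 and Lgr5 did not.

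Lists of proliferation, bile duct, fetal and stellate genes scored 2.33 to 3.21 above the untreated mean (median log2 CPM) in combination replicate 3. They scored −0.87 to 0.20 in the other 2 combination libraries. Untreated replicate 2 scored 0.36 to 1.06 on these lists, and the other untreated libraries −0.62 to −0.08. In combination replicate 3, 0 of 15 hepatocyte markers were above the untreated mean on the TMM scale, with a score of −0.89. Mitochondrially encoded genes took 1.54% of its counts. In a bulk sample more cells of a type and more RNA per cell cannot be told apart. Proliferation genes had 33 of 35 members above 0 and a median of 1.51, but −0.02 without replicate 3 and 1.89 without untreated replicate 2. Cdk1, the kinase of mitosis, was at 1.19, 2.91 and 19.6 CPM in combination livers and 1.24, 1.26 and 1.28 CPM in untreated mutants. Prom1, a bile duct and progenitor marker, was at 0.396, 0.459 and 22.9 CPM in combination livers and 0.852, 0.273 and 0.403 CPM in untreated mutants, and its log2 difference was 3.93 with all libraries and −0.28 without replicate 3. Bile duct markers had 14 of 17 members above 0, with a median of 1.76 with all libraries and −0.41 without replicate 3, and summed to 292 to 2938 CPM in combination livers and 388 to 2902 CPM in untreated mutants. Fetal and tumour markers had 9 of 13 above 0 and medians of 1.17 and −0.67 (0.63 without combination replicate 1), and summed to 78.3 to 714 CPM in combination livers and 155 to 4955 CPM in untreated mutants. Stellate cell and fibrosis markers had 28 of 29 above 0 and medians of 0.92 and −0.20 (1.46 without untreated replicate 2), and summed to 380 to 1550.4 CPM in combination livers and 375 to 515 CPM in untreated mutants. Afp, the fetal albumin relative used as a liver tumour marker, was at 5.10, 5.20 and 66.8 CPM in combination livers and 4.08, 5.91 and 4.40 CPM in untreated mutants. Among untreated mutants, replicate 2 held the highest sums of bile duct markers (2902 CPM) and of fetal and tumour markers (4955 CPM). The part of all these markers in other results was not tested.

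Interferon-induced genes had a median of 0.72 with all libraries, 0.01 without combination replicate 3 and 1.10 without untreated replicate 2. Irf7, a transcription factor of the interferon response, was at 78.7, 22.0 and 130 CPM in combination livers and 23.2, 10.9 and 16.2 CPM in untreated mutants. Usp18, which dampens interferon signalling, was at 12.3, 6.93 and 33.4 CPM in combination livers and 4.69, 2.90 and 2.38 CPM in untreated mutants, and so was higher in every combination library (2.40 ± 0.77, edgeR adjusted p = 0.778). T and NK cell markers had 14 of 15 members above 0, with a median of 1.21 with all libraries and 0.01 without replicate 3. B and plasma cell markers had 14 of 15 above 0 with medians of 0.51 and −0.05, and macrophage and Kupffer markers 14 of 20 with 0.31 and −0.42. Without combination replicate 2 these 2 medians were 0.93 and 0.61. Summed levels overlapped, with T and NK cell markers at 57.2 to 69.6 CPM in combination livers and 45.7 to 127 CPM in untreated mutants (57.2 CPM in combination replicate 3), and macrophage markers at 485 to 1676 CPM in combination livers and 654 to 899 CPM in untreated mutants. Gzmb, Cd3e and Gzma were at 0 in at least 1 of the 6 libraries, as were the B cell marker Ighd and the bile duct markers Cftr and Cldn4.

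**Figure D4:**
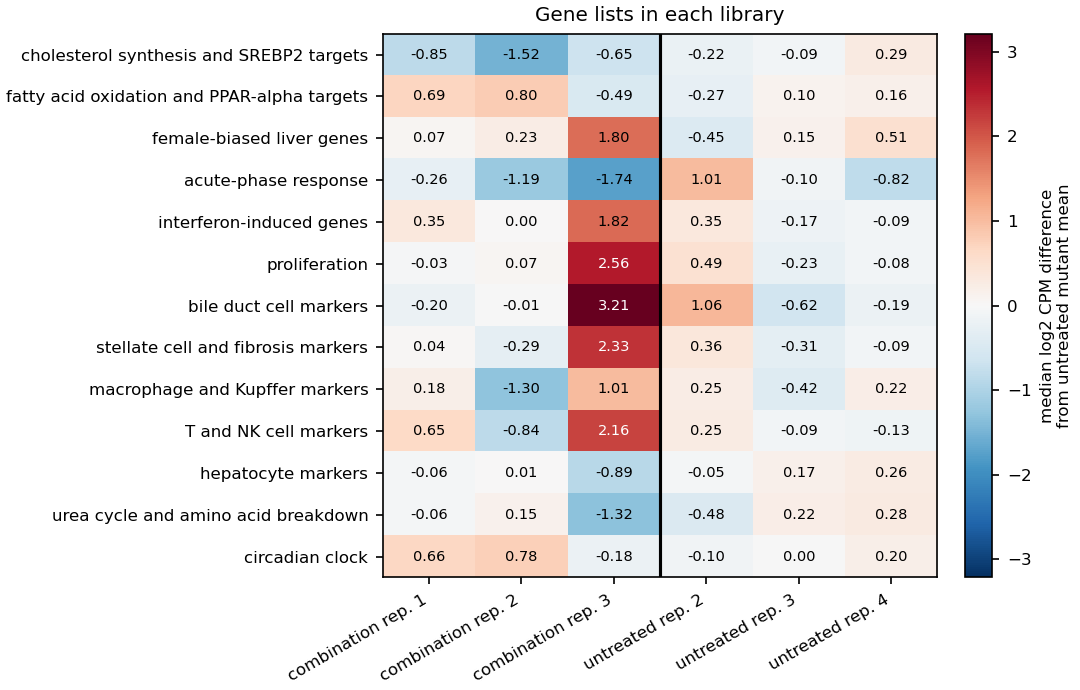
Median over list members of log2 CPM minus the mean of the 3 untreated mutant libraries, for 13 lists (rows) in the 3 combination and 3 untreated libraries (columns). Cholesterol synthesis is below the untreated libraries in all 3 combination libraries (−0.85, −1.52 and −0.65), while proliferation and bile duct markers are high in combination replicate 3 (2.56 and 3.21).

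The acute-phase response, the plasma proteins that the liver releases in inflammation, had 2 of 28 members above 0 and a median of −0.99. It was −1.65 without combination replicate 1, −0.33 without untreated replicate 2 and −0.02 without that library and combination replicate 3. Saa3, serum amyloid A3, was at 25.5, 19.9 and 12.0 CPM in combination livers and 436, 17.7 and 64.6 CPM in untreated mutants. Fgg, the fibrinogen gamma chain, was at 4600.3, 3161 and 2059.6 CPM in combination livers and 13865, 6319.7 and 4397 CPM in untreated mutants. In both the highest value was that of untreated replicate 2, and the groups overlapped. Neutrophil markers summed to 51.6 to 686 CPM in combination livers and 182 to 4919 CPM in untreated mutants, and their part in the acute-phase values was not tested.

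Lists of processes tied to the drugs or the mutation are given with the range of their medians when 1 library was left out. AMPK, mTOR and energy stress genes had 13 of 25 above 0 and a median of 0.07 (−0.09 to 0.15). Gluconeogenesis had 11 of 20 above 0 and a median of 0.07 (−0.14 to 0.22). Pck1, its rate-controlling enzyme, was at 1026, 907 and 128 CPM in combination livers and 198, 444 and 332 CPM in untreated mutants, with replicate 3 apart from the other 2. The 29 measured genes of the Fanconi anaemia pathway had 15 above 0 and a median of 0.02 (−0.05 to 0.17). Lipogenesis had 10 of 21 above 0 and a median of −0.07 (−0.29 to 0.08). Subunits of respiratory complex I had 0 of 37 above 0, against 50.4% of all genes, with a median of −0.27 against 0.00, no member without overlap and none with an unadjusted p under 0.05. That median was −0.56 without untreated replicate 2, −0.53 without combination replicate 2 and −0.07 without untreated replicate 3. Of those 37, combination replicate 1 had 2 above the untreated mean, replicate 2 had 34 and replicate 3 had 1.

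**Figure D5:**
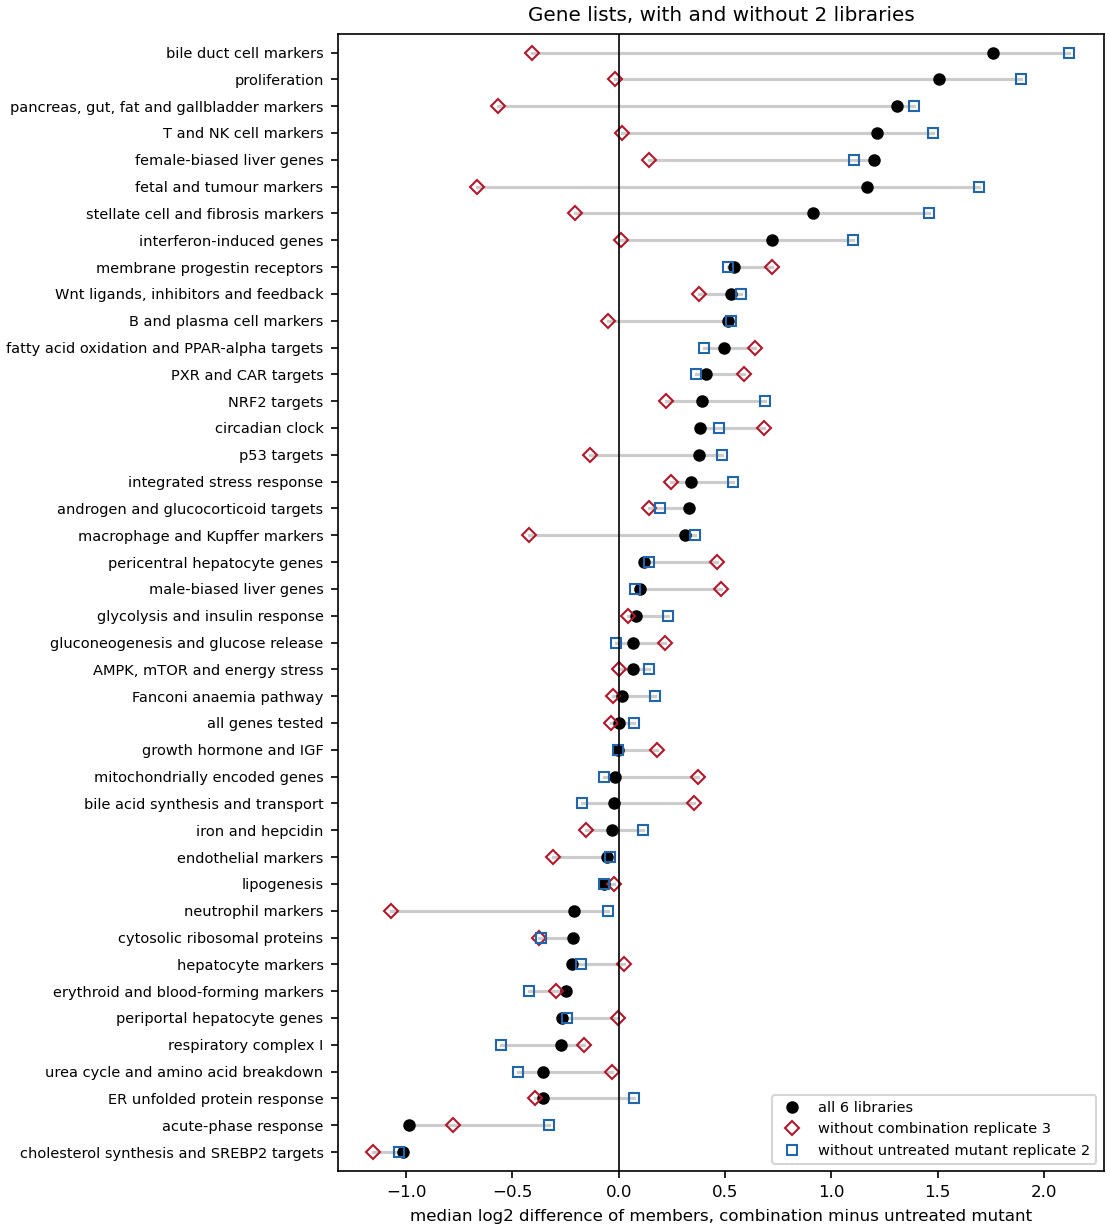
Median log2 difference (combination minus untreated mutant) of each gene list with all 6 libraries (black), without combination replicate 3 (red diamonds) and without untreated mutant replicate 2 (blue squares). Cholesterol synthesis is at −1.01, −1.16 and −1.03 in these settings, whereas bile duct, proliferation, fetal and stellate lists are above 0 except without combination replicate 3.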

How the data were processed

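The authors deposited 1 table with whole-number counts for 16115 genes, per the file headers. RNA came off a column kit and went to a service laboratory for library preparation, per the labels' protocols. Reads were placed on GRCm39, per the submitters' processing notes. Sources used here do not name the aligner, the counting program, its strand setting or the authors' test. The table also holds a CPM signal and log2 residuals deposited by the authors, which were not used, and the authors' log2 fold changes and p-values, quoted only where named.

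EdgeR 4.0.16 (R 4.3.3) fitted the counts of all 18 libraries with robust quasi-likelihood, TMM scaling, filterByExpr (0 genes removed) and a coefficient for each group. P-values were adjusted by Benjamini-Hochberg, and genes under 0.05 were called. Errors of log2 differences are standard errors of that fit. A prior count of 2 was added for log2 CPM. The procedure was tested on simulated data. Depth was 20.2 to 32.7 M counts, and no 2 compared libraries of a group were alike within counting noise (chi-square over degrees of freedom 73.5 to 530). Of 20 labelled samples, untreated mutant replicate 1 and metformin replicate 2 are not analysed here. Replicates were numbered in record order and pair nothing.

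The comparison and the 41 gene lists were chosen with earlier results of these data known. Named were the called genes, the 15 with the smallest unadjusted p in each direction among genes with mean log2 CPM of at least 0 and no overlap, and up to 3 members of each list. Other list members were named after their values were seen. Lists were described, not tested. Results for some genes of these rules are not reported here. Alternatives were DESeq2 1.42.0, limma-voom (limma 3.58.1), DESeq2 size factors, no filter, a mean CPM of at least 1, the compared groups alone, and leaving out libraries. Leaving out the 2 outlying ones together was added after seeing the data.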

Additional observations from a re-analysis of the deposited data

How the results depend on the processing

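Against untreated mutants, 3 genes were called in the reported fit. The count was 43 with DESeq2, 16 with limma-voom, 0 with the 2 compared groups alone (612 with unadjusted p under 0.05) and 1 without combination replicate 3 and untreated mutant replicate 2, and it ranged from 0 to 3 when 1 library was left out. It stayed at 3 with DESeq2 size factors, with no filter and with a mean CPM of at least 1. Against oxymetholone it was 0 in the reported fit (461 with unadjusted p under 0.05), 1 with DESeq2 and 0 to 0 when 1 library was left out. Against metformin it was 0 (552 with unadjusted p under 0.05), 10 with DESeq2, 3 with limma-voom and 0 to 2 when 1 library was left out. The 2 calls came without combination replicate 3 and were Lncbate1 and Gm10032, a predicted gene.

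Among 83 genes followed, 4 of 1078 alternative values changed sign. Srebf2 was 0.12 with limma-voom, −0.61 to 0.13 when 1 library was left out (0.13 without untreated mutant replicate 2) and 0.24 without that library and combination replicate 3. Prom1 was −0.28 to 4.53, the lowest without combination replicate 3. Of the others, 12 lost and 26 gained a call. The causes were not tested. Of 546 list medians under alternatives, 508 moved by less than the spread and 38 by more. The spread is the SD of the list's mean log2 CPM between libraries of a group, with all libraries in (for all genes together, a fixed limit). An outlying library thus widens the limit for its own removal, so the 508 are not a measure of stability. Interferon-induced genes were among them, although their median went from 0.72 to 0.01 without combination replicate 3. No paired analysis was possible because the labels give no pairing between libraries. Lncbate1 rests on 2 to 12 counts in untreated livers.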

Other observations

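Clock output genes lay higher in combination replicates 1 and 2 than in replicate 3. Dbp, a clock-driven transcription factor, was at 19.7, 65.6 and 1.03 CPM in combination livers and 0.604, 2.79 and 13.2 CPM in untreated mutants. Usp2, a deubiquitinase with a daily rhythm, was at 12.2, 38.1 and 2.61 CPM in combination livers and 0.888, 1.75 and 2.13 CPM in untreated mutants (log2 difference 3.47 ± 0.98, edgeR adjusted p = 0.688). Per1 was at 9.76, 10.7 and 2.99 CPM in combination livers and 1.53, 1.15 and 4.22 CPM in untreated mutants. Dbp and Per1 overlapped between the groups, and Usp2 did not. The labels give no hour of collection.

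Detoxification genes lay higher in parts. NRF2 targets had 26 of 30 members above 0 and a median of 0.39, and targets of the drug receptors PXR and CAR had 21 of 28 above 0 and a median of 0.41. Without combination replicate 3 the NRF2 median was 0.22, and without untreated replicate 2 it was 0.69. Without combination replicate 1 the PXR and CAR median was 0.21, and that list scored −0.30 in combination replicate 3. Gstm3, a glutathione transferase on both lists, was at 150, 99.2 and 660 CPM in combination livers and 47.7, 54.1 and 36.2 CPM in untreated mutants. Cyp3a11, the main drug-oxidising cytochrome of the family, was at 3151, 11581 and 3969 CPM in combination livers and 2926, 1196 and 2356 CPM in untreated mutants. The groups did not overlap in either gene, and neither passed (edgeR adjusted p = 0.851 for Gstm3 and 0.950 for Cyp3a11). Cytosolic ribosomal protein genes had 0 of 47 members above 0 with a median of −0.22, and −0.02 without untreated replicate 3.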
